A study of Homo sapiens with 4 samples.

Results

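The SUMO proteases and their SUMO2 and SUMO3 substrates were followed through 2 lists of H3K27Ac peaks from MOLM13 cells. The group was named by gene symbol and holds 8 of the 20037 genes annotated as protein-coding on GRCh38.p14. They are SENP6, which the study names as a target of the MLL fusion protein (MLL-FP), the other SENP family members SENP1, SENP2, SENP3, SENP5 and SENP7, and the modifiers SUMO2 and SUMO3. No cutoff on the peak lists was used to choose them, but they were chosen with earlier results of these data known. The study itself had reported lower H3K27Ac peak density at SENP6 in MOLM13 after SNDX-50469. That was a fold change in density, a measure unlike the bases under called peaks used here. It also reported lower chromatin accessibility (ATAC-Seq) and mRNA of SENP6 in MOLM13, and lower SENP6 in patient-derived AML cells by single-cell RNA-Seq. MOLM13 is an established human AML cell line with MLL1 rearrangement (MLL1-r). One library held control cells, whose label gives no treatment while the protocol names a DMSO arm. The other held cells given SNDX-50469 at 500 nM, and both were collected after 16 h. SNDX-50469 is an inhibitor of the binding of Menin to MLL1. Both conditions came from the same cell line, so that every cell carried the same MLL1-r, and no other line was analysed here. H3K27Ac, the acetyl mark of active promoters and enhancers, was profiled by ChIPmentation, in which Tn5 adds the sequencing adapters. The 2 input libraries were not analysed here.

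SUMO proteins are small ubiquitin-like modifiers that are joined to lysines of target proteins by an E1, an E2 and E3 ligases. The SENP proteases cut the SUMO precursors to their mature form and take SUMO off its targets. SENP6 and SENP7 act mainly on chains built of SUMO2 and SUMO3, SENP1 and SENP2 act on many conjugates, and SENP3 and SENP5 are known from the nucleolus. SUMO2 and SUMO3 are nearly identical proteins after maturation. The family is widely expressed, and its members act in cell division, DNA repair and the nuclear PML bodies.

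The sequences below show 5′ ends that carried a control H3K27Ac peak, for SENP6 and SUMO2, which were also under a peak after treatment, and for SENP3 and SENP5, which were not. Each is read from its gene's strand, from 250 bases before to 50 bases after the outermost annotated start, and comes from RefSeq on GRCh38.p14. Capitals mark GC boxes, searched as GGGCGG on both strands, with overlapping matches counted each. The positions are chr6:75601630-75601929 on the plus strand for SENP6, chr17:75182910-75183209 on the minus strand for SUMO2, chr17:7561669-7561968 on the plus strand for SENP3 and chr3:196867670-196867969 on the plus strand for SENP5.
SENP6: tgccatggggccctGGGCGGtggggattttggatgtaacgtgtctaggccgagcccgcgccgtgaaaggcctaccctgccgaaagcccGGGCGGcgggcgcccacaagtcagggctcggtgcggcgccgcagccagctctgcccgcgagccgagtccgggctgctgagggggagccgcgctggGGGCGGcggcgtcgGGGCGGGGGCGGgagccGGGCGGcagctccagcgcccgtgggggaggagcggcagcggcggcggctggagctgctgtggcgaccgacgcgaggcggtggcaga
SUMO2: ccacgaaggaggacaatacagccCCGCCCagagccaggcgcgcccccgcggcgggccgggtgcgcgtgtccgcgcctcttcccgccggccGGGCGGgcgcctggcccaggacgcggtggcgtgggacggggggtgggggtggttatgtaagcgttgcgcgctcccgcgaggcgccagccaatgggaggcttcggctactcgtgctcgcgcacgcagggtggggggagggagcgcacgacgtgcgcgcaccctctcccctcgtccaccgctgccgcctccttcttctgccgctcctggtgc
SENP3: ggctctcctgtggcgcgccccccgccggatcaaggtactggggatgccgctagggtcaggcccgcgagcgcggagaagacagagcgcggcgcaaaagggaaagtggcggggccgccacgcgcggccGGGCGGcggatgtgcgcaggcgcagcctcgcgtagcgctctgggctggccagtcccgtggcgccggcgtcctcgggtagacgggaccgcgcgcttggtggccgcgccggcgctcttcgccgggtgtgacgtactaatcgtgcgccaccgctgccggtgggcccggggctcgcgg
SENP5: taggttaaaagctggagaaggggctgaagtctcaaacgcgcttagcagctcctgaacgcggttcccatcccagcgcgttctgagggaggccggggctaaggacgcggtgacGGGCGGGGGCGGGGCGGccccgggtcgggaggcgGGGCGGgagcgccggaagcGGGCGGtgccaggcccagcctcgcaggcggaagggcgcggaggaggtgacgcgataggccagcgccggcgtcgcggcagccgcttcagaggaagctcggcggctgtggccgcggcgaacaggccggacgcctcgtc

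All 4 sequences are rich in G, C and CpG. SENP6 holds 77.0% G and C, 40 CpG and 6 GC boxes. SUMO2 holds 75.3% G and C, 41 CpG and 2 GC boxes. For SENP3 the values are 75.7%, 48 CpG and 1 GC box, and for SENP5 they are 73.0%, 41 CpG and 5 GC boxes. The 35116 RefSeq promoters of the same length had a median of 58.7% G and C and 14 CpG, and 45.0% of them held a GC box. The pair that stayed under a peak and the pair that did not therefore overlap in G and C content, CpG number and GC boxes. SUMO2 alone among these 4 holds a CCAAT box, found in 34.6% of all promoters, and SENP5 alone holds the ETS core CCGGAAG, found in 10.3%. The CRE core TGACG, found in 24.6% of all promoters, stands once in SENP3 and 2 times in SENP5 and in neither SENP6 nor SUMO2, but also once in SUMO3, whose 5′ end was under a peak in both lists. Neither strand of any of the 4 holds the E-box CACGTG, the NRF1 core GCATGCG or the TATA box TATAAA. SENP1 and SUMO3 also had sequences in the table, and SENP2 and SENP7 did not.

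Before the genes, the lists themselves bear on every value. The control list held 245875 peaks over 224 Mb and the SNDX-50469 list 54061 peaks over 29.4 Mb. The files give no read totals, and a peak's height is set against its own library, so that positions were compared between lists and heights were not. A smaller list and lower H3K27Ac occupancy cannot be told apart with 1 library per condition, no value has a replicate check, and no test was made. The labelled cell type was checked on marker genes. The 5′ end lay in a control peak for 8 of 9 myeloid leukemia markers, all except CD33, and for 2 of 9 markers of other cell types, COL1A1 among them. Within 5 kb of the 5′ end, the myeloid markers had 5966 to 10001 bp under a control peak, against a median of 1059 bp and a range of 0 to 7681 bp for the other markers. Any control cover there was found in all 9 myeloid markers and in 6 of the 9 others. After treatment, 7 of those 9 and 0 of those 6 had cover there. Of all genes with control cover near the 5′ end, 50.8% kept some of it.

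SENP6 carried far more H3K27Ac cover than any other gene of the family, and nearly all of it over the gene body was absent from the SNDX-50469 list. In control cells 75465 bp of the 126402 bp that span SENP6 (chr6:75601880-75718281, plus strand) with 5 kb on both sides lay under a peak. In treated cells 4454 bp did, which is 59.7% against 3.52% of the span. Every treated base lay inside a control peak, so that 5.90% of the control cover was kept. SENP6 held 64.1% of the 117754 bp of control cover that the 8 genes had together. What was kept stood mainly at the start of the gene. Within 5 kb of the 5′ end, 9472 bp of 10001 bp were covered in control and 3572 bp after treatment, so that 37.7% was kept. Outside that window, control peaks took up 65993 bp and treated peaks 882 bp, so that 1.34% was kept.

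Along the gene, the control cover of SENP6 formed a domain over its first 60 kb. In steps of 10 kb from the 5′ end, 86.9% to 100% of each of the first 6 steps was covered in control. The share was 54.7% from 60 to 70 kb and 45.2% from 70 to 80 kb, and it stood between 5.21% and 13.0% in the 4 steps from 80 to 120 kb. After treatment 25.9% of the first 10 kb was covered, followed by 3.74%, 2.32%, 0% and 1.40% in the next 4 steps. No base was covered beyond 49.8 kb. The longest stretch without a peak was 71639 bp after treatment and 7323 bp in control. The control domain and the treated remainder thus share the start of the gene and part ways within its first 10 kb.

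**Figure D1:**
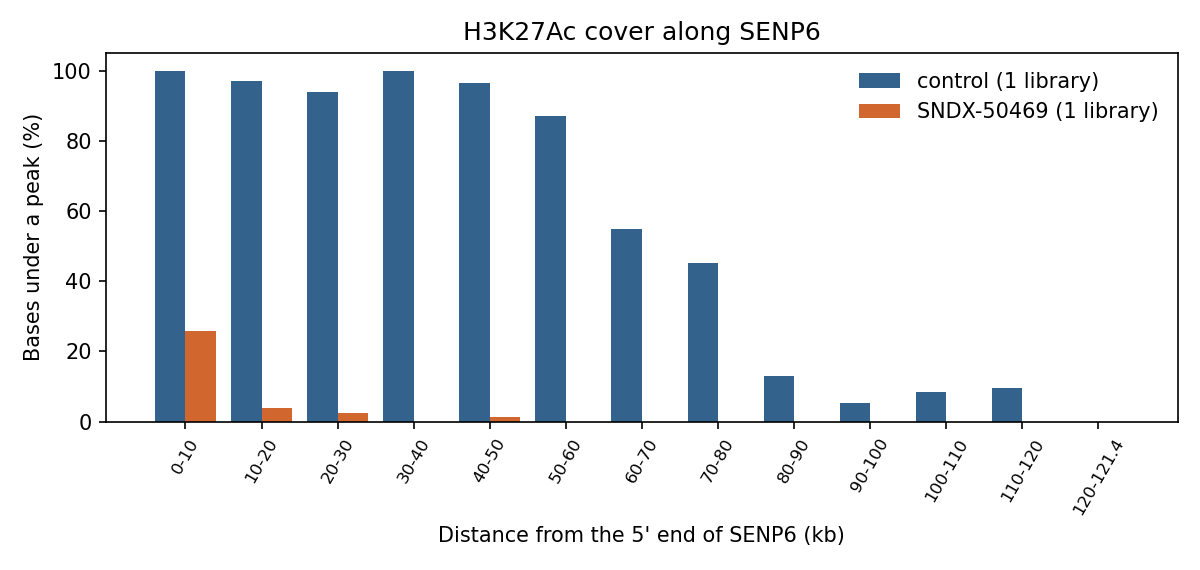
Share of bases under an H3K27Ac peak (%) in 10 kb steps from the 5′ end of SENP6 to 5 kb past its end, with 1 bar for the control library and 1 for the SNDX-50469 library. The last step is 1.4 kb long. Control cover stays at 86.9% or above to 60 kb, whereas treated cover is 25.9% in the first step and at most 3.74% after it.

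The single peaks show the same form. SENP6 had 40 control peaks of 97 to 18697 bp, and the 4 longest, each over 5 kb, summed to 55346 bp. The longest ran over the 5′ end, from −4.10 to 14.6 kb relative to it (chr6:75597784-75616480). It had a fold over background of 7.89 and a −log10 q of 12.1, and stood at place 549 of 245875 control peaks by length. The other 3 long peaks ran from 14.9 to 26.3 kb, from 28.5 to 44.6 kb and from 45.0 to 54.0 kb, with a −log10 q of 6.61, 4.71 and 7.06. The SNDX-50469 list had 7 peaks of 110 to 2813 bp there. The longest covered the 5′ end (chr6:75600759-75603571), with a fold of 6.43 and a −log10 q of 6.61 in its own list. It stood at place 1346 of 54061 by length. The remaining 6 peaks were 110 to 649 bp long with a −log10 q of at most 2.07. Of the 40 control peaks, 4 shared at least 1 bp with a treated peak, which is 10.0% (Wilson 95% interval 3.96% to 23.1%, counting error only), and these were the 4 long ones.

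Joined across gaps of up to 12.5 kb, the control peaks at SENP6 made a region of 171.6 kb with 52 peaks, from 34.2 kb before the 5′ end to 137.4 kb after it, and the treated peaks a region of 30.8 kb with 6 peaks. No other protein-coding gene lies in the SENP6 span with its flanks or has its 5′ end within 5 kb of it.

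**Figure D2:**
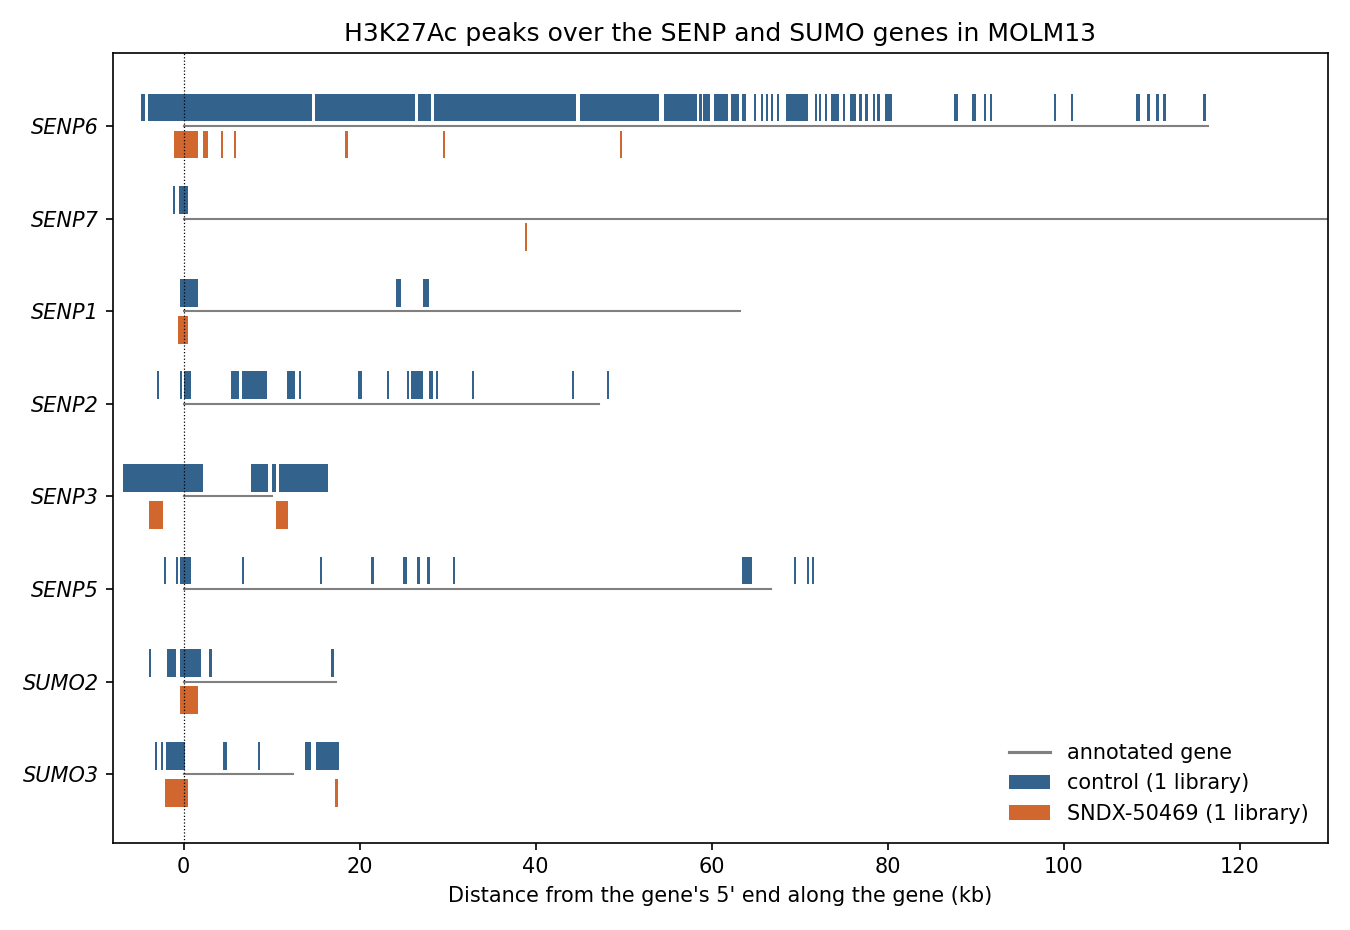
Peaks of both lists over the 8 genes by distance from the 5′ end (kb), with control peaks above and SNDX-50469 peaks below the line of each annotated gene. Peaks under 0.25 kb are drawn at that width, and the plot stops at 130 kb, so that the SNDX-50469 peak of SENP7 at 188.8 kb is not shown. SENP6 has a nearly unbroken control domain over 54.0 kb, and treated peaks cover the 5′ ends of SENP6, SENP1, SUMO2 and SUMO3, while others lie inside SENP6 and SENP7 and beside SENP3 and SUMO3.

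SENP7, the nearest relative of SENP6 in activity, had the least cover of the 8 genes. In control 1160 bp of its 199008 bp span (gene at chr3:101324205-101513212, minus strand) were covered, by a peak of 1068 bp over the 5′ end and one of 92 bp before it. After treatment neither was found. The 2 treated peaks, both under 0.25 kb, lay 188.8 and 38.8 kb into the gene, where control had none, and both had the smallest −log10 p of the list. SENP6 and SENP7 therefore differed in control by 59.7% against 0.583% of their spans.

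SENP1 and SENP2, proteases with a broad range of conjugates, differed at the 5′ end. SENP1 (chr12:48042897-48106079, minus strand) had 3381 bp under control peaks and 1241 bp under a treated peak, and 1013 bp were in both. Its only treated peak lay over the 5′ end, and 48.0% of the control cover within 5 kb was kept, with a −log10 q of 5.58 in control and 2.04 after treatment. The start of PFKM on the other strand lies 0.726 kb inside SENP1, under the same control peak, and the treated peak covered the start of SENP1 and not that of PFKM. All control cover of SENP1 near its 5′ end lay within 5 kb of the PFKM start. SENP2 (chr3:185586295-185633551, plus strand) had 16 control peaks over 9175 bp and none after treatment. Its outermost annotated start was not itself under a peak, and a control peak of 794 bp began 66 bp after it. The longest control peak of SENP2, 2779 bp, lay from 6.68 to 9.46 kb into the gene.

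SENP3 and SENP5, the nucleolar proteases, had a control peak but no treated peak over their own 5′ ends. SENP3 (chr17:7561919-7571969, plus strand) is the one member with a larger share of its span covered in control than SENP6, 68.5%, but its span is 20051 bp. Of 13743 bp in control, 2942 bp were covered after treatment, and 18.8% was kept. The peak over its 5′ end was 9159 bp long in control. Following SNDX-50469 treatment, the start of SENP3 was not covered, and the treated peak within 5 kb (chr17:7557967-7559562) covered the start of TNFSF13, which lies at −3.64 kb from that of SENP3. The other treated peak (chr17:7572437-7573782) covered the start of EIF4A1, 10.9 kb after it, with a −log10 q of 9.88. With positions within 5 kb of other genes' starts left out, SENP3 kept 0% near its 5′ end and its control cover was 18.8% of what remained of the span. SENP5 (chr3:196867920-196934714, plus strand) had 14 control peaks over 4854 bp, 1253 bp of it in the peak over the 5′ end, and none after treatment.

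SUMO2 and SUMO3, which form the chains that SENP6 and SENP7 cut, kept the largest shares of the 8 genes by covered length over the span. At a −log10 q of at least 5 in both lists both were at 0%, with flanks of 50 kb SUMO3 was at 8.85%, below SENP1 at 21.2% and SENP5 at 19.4%, and by the share of control peaks that met a treated peak SENP3, with 2 of 4, stood highest. SUMO2 (chr17:75165586-75182959, minus strand) had 4057 bp of control cover and 2065 bp of treated cover, with 50.9% kept. All of the treated cover was 1 peak over the 5′ end (chr17:75181285-75183349), which lay inside the control peak of 2430 bp there. SUMO3 (chr21:44805617-44818062, minus strand) had 5919 bp in control and 2747 bp after treatment, with 39.1% kept. Its control peak of 2195 bp over the 5′ end lay whole inside a treated peak of 2628 bp. Within 5 kb of the 5′ end SUMO3 had 2764 bp under a peak in control and 2628 bp after treatment, the closest pair of values among the 8 genes. Over the rest of SUMO3, 119 bp of 3155 bp were kept, in a control peak that also covered the start of UBE2G2.

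**Figure D3:**
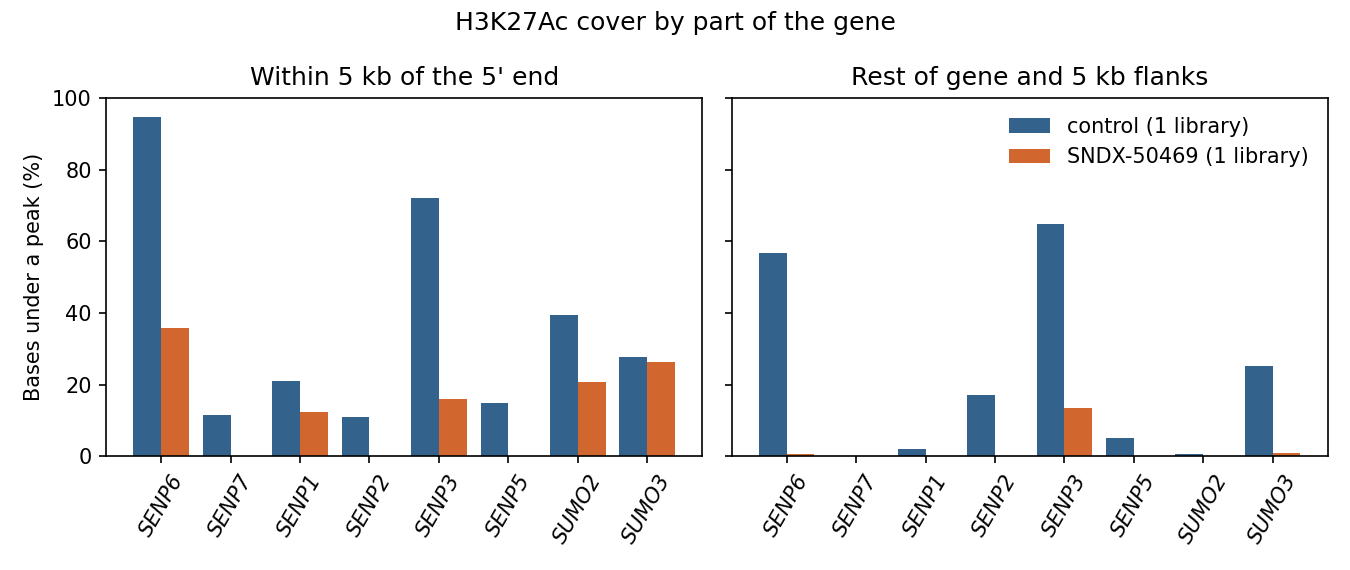
Share of bases under a peak (%) within 5 kb of the 5′ end and over the rest of the gene with 5 kb flanks, for the 8 genes in the control and the SNDX-50469 library. SENP6 and SENP3 stand highest in control in both parts, SUMO3 is at 27.6% and 26.3% near its 5′ end, and treated cover over the rest is under 1% for every gene but SENP3.

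Across the family, covered length was lower after treatment in 8 of 8 genes. Of all 15494 genes with control cover, 98.2% were lower, so that the direction alone does not set the family apart. None of the control cover was kept in 3 of the 8, SENP2, SENP5 and SENP7, against 44.7% of all genes. Some of the control cover within 5 kb of the 5′ end was kept in 5 of 8, against 50.8% of all genes. The 5′ end itself was under a control peak in 7 of 8 genes, beside 7660 of the 19675 genes with a known strand. It was also under a treated peak in 4 of the 7, SENP6, SENP1, SUMO2 and SUMO3, against 40.3% of those 7660. Over the rest of the gene, 3 of the 7 genes with control cover kept some, SENP6, SENP3 and SUMO3, against 32.0% of all genes. Without flanks, or with other genes' starts left out, SENP6 was the one member that kept any there.

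Whether SENP6 differs from its family depends on the quantity. In covered length it stood first, at 75465 bp against 42289 bp for the other 7 genes together and 13743 bp for the next, SENP3. With flanks of 50 kb it still stood first, but at 80905 bp against 126663 bp for the other 7 together. By the share of the span covered in control, the order was SENP3 at 68.5%, SENP6 at 59.7%, SUMO3 at 26.4%, SENP2 at 16.0%, SUMO2 at 14.8%, SENP5 at 6.32%, SENP1 at 4.62% and SENP7 at 0.583%. By the share kept near the 5′ end, SENP6 stood at place 4 with 37.7%, below SUMO3 at 79.4%, SUMO2 at 52.2% and SENP1 at 48.0%, and above SENP3 at 22.1% and the 3 genes at 0%. At a −log10 q of at least 5 in both lists SENP6 kept 30.9% there, and the 4 others with control cover kept 0%. The other 7 genes together kept 34.7% of 19786 bp near their 5′ ends and 4.91% of 22503 bp over the rest. The 4.91% came from SENP3, at the start of EIF4A1, and from SUMO3, in a control peak that also covered the start of UBE2G2. It was 0% without flanks or with other genes' starts left out, below the 1.34% of SENP6. Pooled over the bases of all genes these shares were 20.4% and 7.88%. Per gene with control cover, the median kept share was 1.85% near the 5′ end, with an upper quartile of 25.2%. Over the rest the median was 0% and the upper quartile 2.97%, so that the 1.34% of SENP6 lay between them. SENP6 was therefore apart in the length of its control domain, while its share kept near the 5′ end lay within the range of the family except at that stricter cutoff. Neither statement has a replicate check.

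Set among all genes, the control domain of SENP6 was long but not singular. By covered length SENP6 stood at place 248 of 19675 genes with a known strand. Of the 1444 genes whose spans are within 20% of its length, 42 (2.91%) had as large a share covered, and their median was 5.49%. The share that SENP6 kept near its 5′ end lay inside the middle range of genes with similar control cover there. In the 1738 genes within 20% of its cover near the 5′ end, the median kept share was 24.5%, with quartiles of 7.82% and 45.0%. For SUMO3 the 79.4% kept stood above the upper quartile of 25.6% of its own 1853 such genes. SUMO2 at 52.2% stood above an upper quartile of 31.0%. SENP1 at 48.0% stood above one of 20.2%. SENP3 at 22.1% lay between quartiles of 3.17% and 33.7%, and SENP2, SENP5 and SENP7 at 0% equalled medians of 0%. The shares above an upper quartile rest on 1 to 4 control peaks each, and that of SENP1 lies within 5 kb of the PFKM start. The chromosomes of the 8 genes kept 6.31% to 10.4% of their control cover, within the 6.31% to 19.3% of all chromosomes.

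**Figure D4:**
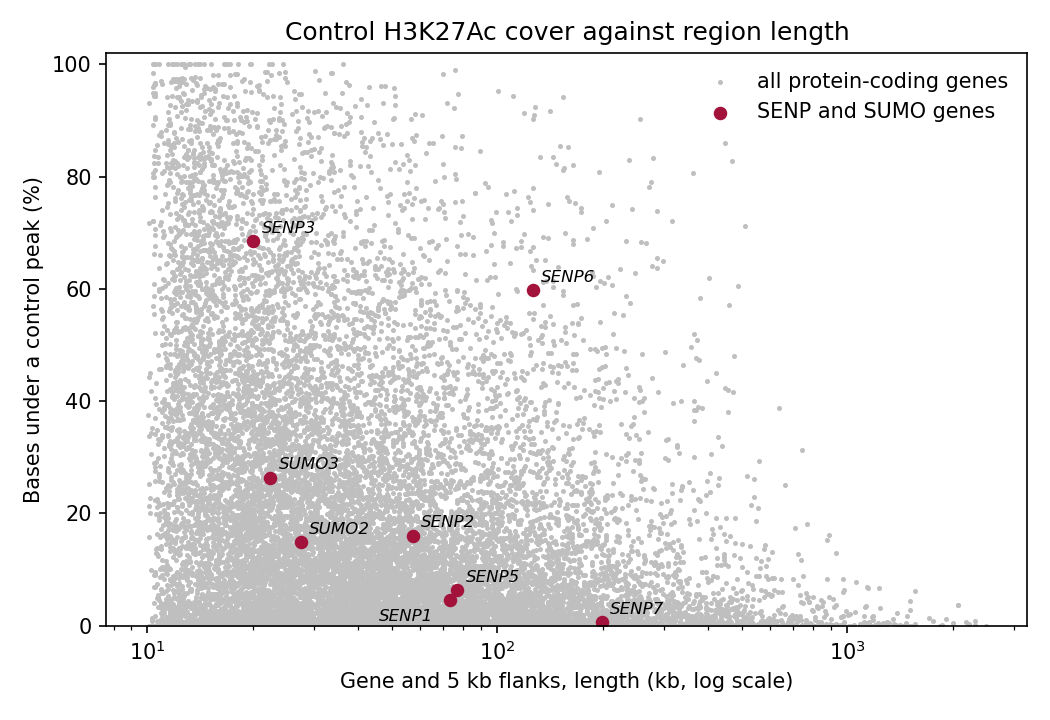
Share of bases under a control peak (%) against the length of the gene with 5 kb flanks (kb, log scale) for the protein-coding genes with a known strand, with the 8 SENP and SUMO genes marked. SENP6, with a span of 126402 bp, stands above most genes of similar length, and SENP3, at 68.5%, is among genes of much shorter span.

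Among the 5 genes nearest to SENP6 in pattern, of 11269 with control cover in both parts, were LRMDA, BRCA2, SFMBT2 and NUDT3. The likeness was the distance over 4 standardized values, the covered length in control and the share kept, each near the 5′ end and over the rest, and it ran from 0.196 to 0.350. The search left out chromosome 8 and the SUMO genes already followed. These 4 genes had 59194 to 99891 bp of control cover, kept 32.2% to 38.5% near the 5′ end and 0% to 3.74% over the rest. Because the genes were picked on these values, their closeness to SENP6 in them is no separate result. The share of the span covered in control was not used for picking. It ran from 6.90% in LRMDA, with a span of 1138545 bp, to 62.2% in BRCA2, beside 59.7% in SENP6. All 4 had their 5′ end under a peak in both lists, as SENP6 did.

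The rest of the SUMO pathway was followed in 23 further genes. All 23 had control cover, and in all 23 it was lower after treatment, beside 98.2% of all genes. Some of it was kept in 20 and none in 3, beside 44.7% of all genes with none kept, with a median of 13.7% over the 23, beside 2.41% over all genes with control cover and 5.90% for SENP6. The largest kept shares were those of DAXX, a histone chaperone of PML bodies, at 51.7% and of DESI1, a SUMO protease outside the SENP family, at 50.3%. DAXX is 4402 bp long, so that most of its 14402 bp span is flank. Starts of other genes were not left out for these 23 genes, so the kept cover may belong to a neighbour. Of the genes that kept 0%, PIAS3 is an E3 ligase and RNF111 a ubiquitin ligase that binds SUMO chains. By role, and beside the same 44.7% of all genes with none kept, some control cover was kept in both E1 genes, SAE1 and UBA2, in 8 of 9 E3 ligase genes, in 4 of 4 other protease genes and in 3 of 3 PML body genes. The other proteases include SENP8, which was counted by its family name although it acts on NEDD8 and not on SUMO. It was kept in 1 of 2 SUMO-targeted ubiquitin ligase genes. As in the family, more genes kept cover near the 5′ end, 18 of 23, than over the rest, 11 of 22, beside 50.8% and 32.0% of all genes. The 5′ end was under a control peak in 16 of the 23, beside 7660 of the 19675 genes with a known strand. It was under a peak in both lists in 7 of the 16, beside 40.3% of those 7660.

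By the share of the span covered in control, 3 of the 23 stood above SENP6, among them DAXX at 74.5% and NSMCE2 at 73.8%, named after their values were seen. NSMCE2 alone had more control cover in bp, 210611 bp, and it lies on chromosome 8, which kept the largest share of all chromosomes. Near the 5′ end 8 of the 23 kept a larger share than SENP6.

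**Figure D5:**
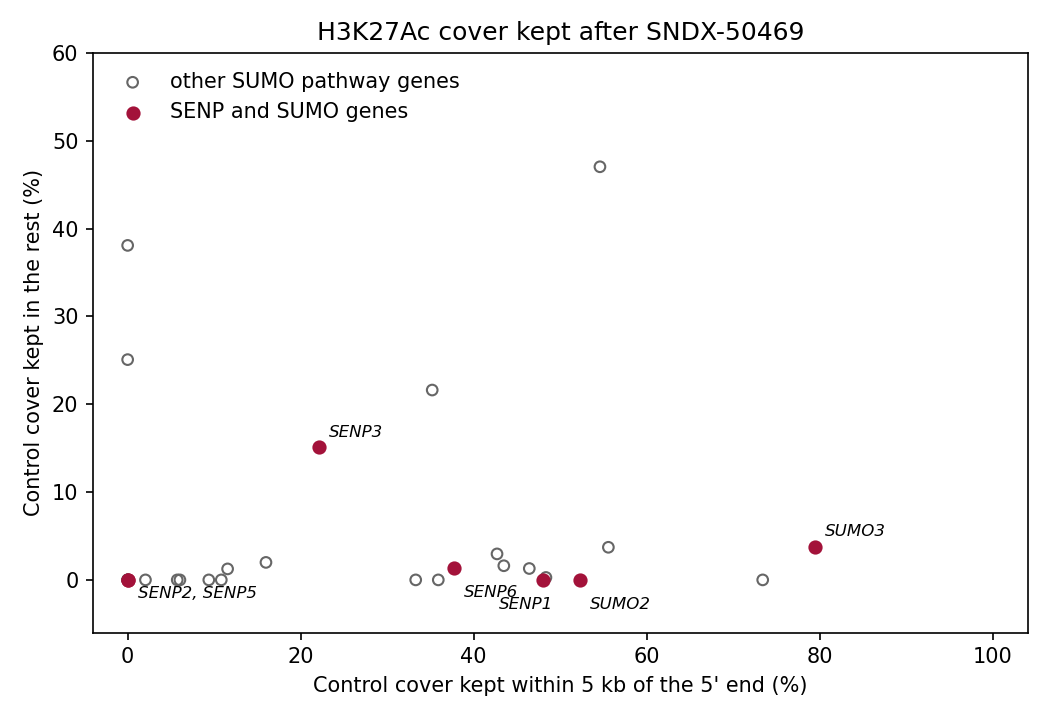
Share of control cover kept over the rest of the gene (%) against the share kept within 5 kb of the 5′ end (%), for 7 of the 8 SENP and SUMO genes and 22 of the 23 other pathway genes, those with control cover in both parts. SENP6 lies at 37.7% and 1.34%, SENP3 is the one marked gene above 4% on the vertical axis, and DAXX is the highest pathway gene there at 47.0%. The rest of DAXX lies wholly in its flank.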

How the data were processed

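H3K27Ac ChIPmentation was analysed in 1 control and 1 SNDX-50469 library of MOLM13 cells. The submitters' processing notes name Trim Galore 0.6.5, Bowtie2 2.3.4.2, Picard 2.9.0, MACS2 2.1.2 and GRCh38, while the supplementary methods name TopHat2 and hg38. For each library the authors deposited a separate list of broad peaks, with a fold (ratio) over background, −log10 p, −log10 q and a score per peak. The deposited score repeats the −log10 q on another scale and was not used. The files give no read totals, so depth is unknown.

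Genes were those of RefSeq GRCh38.p14. Strand came from the RefSeq promoter table for 15842 genes and, by symbol alone, from GENCODE models made for an earlier assembly for 3833, SENP2 and SENP7 among them. The 362 genes without a strand were left out. The 5′ end is the outermost annotated start. Near the 5′ end means within 5 kb of it. The span is the gene with 5 kb on both sides, and the rest is the span without the bases near the 5′ end. Cover is the number of bases under a peak, and the kept share is the cover in both lists as percent of control cover. The genes named were the 8 members, other pathway genes with the largest and smallest kept shares, neighbours, and the 5 genes most like SENP6. Some of the genes this rule names are not reported here. The members and lists were chosen with earlier results of these data known. Each condition has 1 library, so no test was made. Under other settings (peak cutoffs, windows, flanks, neighbours and peak counts), a value counted as moved when it left the Wilson 95% interval of the reported share, taking the number of control peaks as n. Interval arithmetic was tested on simulated data (20 of 20 pairs of lists exact). Python 3.11.15, numpy 2.4.6, pandas 2.3.3, scipy 1.17.1 and matplotlib 3.10.9 were used.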

Additional observations from a re-analysis of the deposited data

How the results depend on the processing

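No paired analysis was possible because the labels give the conditions 1 H3K27Ac library each. Of the 7 settings that could change control covered length, SENP6 stood first among the 8 genes in all 7, above the other 7 genes together in 6 (not with flanks of 50 kb), and first by the share of its span covered in 3, without flanks, with flanks of 50 kb, and with other genes' 5′ ends left out, against place 2 otherwise. Its kept share was larger near the 5′ end than over the rest in 10 of 11 settings. The exception counted control peaks at least 50% covered, where SENP6 was at 0% over the span, near the 5′ end and over the rest, and the other 7 genes at 11.1% near the 5′ end and 0% over the rest.

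Of 56 alternative values for SENP6 and the other 7 genes together, 39 stayed within the interval of the reported value. Of 160 for the other members singly, 55 were counted as moved. That count is too high, because through rounding it takes in values of SENP2 and SENP5 that were 0% both as reported and in the other setting. With the control list trimmed to the covered length of the SNDX-50469 list, SENP6 kept 19.8% over its span and its control share was 14.8%. Over the rest, SENP3 alone among the other 7 genes then had control cover, in 1 peak that also covered the start of EIF4A1, and kept 23.6%. At a −log10 q of at least 5 in both lists, SENP6 kept 0% over the rest and its control share was 31.0%, while the other 7 kept 0% near the 5′ end. Over the rest, SENP3 was again the only one of the other 7 with control cover, in 2 peaks, and kept 21.4%. SENP6 also kept 0% over the rest at a −log10 q of at least 2. It kept 100% within 1 kb of its 5′ end. With flanks of 50 kb its control share was 37.4%. The other 7 genes kept 0% over the rest without flanks, and 0% with other genes' 5′ ends left out. The cause of these moves was not tested. Shares that rest on 1 to 4 control peaks, as near the 5′ end of every member, have wide intervals. For SENP6 near its 5′ end, with 2 control peaks, the interval ran from 5.67% to 85.9%. The shares are of bases while n counts peaks, so the number of values that stayed within an interval is not a measure of robustness. The depth of the libraries is unknown.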
